A study of Mus musculus with 4 samples.

Results

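The 33 genes described here encode the presynaptic release machinery. They comprise 3 vesicular glutamate transporters, 6 synaptotagmins, 6 SNARE proteins and complexins, 10 vesicle surface and membrane proteins, and 8 active zone scaffold and priming proteins. They are a named list of gene symbols by role. No measured value enters the list, but it was drawn up with earlier results of these data known. All 33 were found among the 32285 genes of the count matrices. Their levels were followed in cells of the Atoh1 lineage of the mouse cerebellum at E14.5, an embryonic stage, in 2 control and 2 En1/2 conditional knockout (CKO) libraries.

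At a glutamatergic terminal, a vesicular glutamate transporter loads transmitter into the vesicle. Synapsins tether vesicles in a reserve pool, and Rab3 proteins with the active zone scaffold (Bassoon, Piccolo, RIM, ERC and liprin proteins) bring them to the release site. Munc13 proteins prime the SNARE complex of syntaxin, SNAP-25 and synaptobrevin, complexins clamp it, and calcium binding to a synaptotagmin triggers fusion. Many of these genes are transcribed in young neurons well before synapses are mature. In the cerebellum, the Atoh1 lineage of the rhombic lip gives rise to the excitatory neurons of the cerebellar nuclei and then to granule cells. Nuclei neurons are known for VGLUT2 (Slc17a6), while mature granule cells are known for VGLUT1 (Slc17a7).

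All embryos carried 1 copy of Atoh1-Cre and of a Cre-dependent tdTomato reporter (R26LSL-tdT/+). The CKO embryos had in addition the floxed alleles En1lox/lox and En2lox/lox, which the controls lack per their listed genotype. Both genotypes therefore carried Cre, and deletion was limited to cells with a history of Atoh1-Cre activity. Animals were pooled for each library, in a number not given in the sources used here, tdTomato-positive cells were sorted, and UMIs (unique molecular identifiers, a count of captured RNA molecules) were read from the 3′ ends of transcripts.

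Of the barcodes deposited per library (4983 to 7083), 2911 and 3931 were kept in control replicates 1 and 2, and 2007 and 3697 in CKO replicates 1 and 2. Barcodes under 500 genes or under 1000 UMIs, or above 10% mitochondrial UMIs, were left out. The deposited libraries held 14998150 to 33709450 UMIs, and any pair of libraries shared 1 to 6 kept barcodes. Depth differed with genotype: a kept cell had a median of 2734 and 2122 UMIs in the control pools against 5352 and 5544 in the CKO pools. Atoh1 is a mark of the youngest cells of the lineage. An Atoh1 UMI was found in 25.9% and 10.1% of cells in the control pools against 45.9% and 43.7% in the CKO pools. Cells were not brought to equal depth for this, so the share can differ with depth alone. En2, a targeted gene, was lower in the CKO in each of the classes tested, for example at 246 and 193 against 48.7 and 43.8 CPM in Meis2-led cells. En1 was at 537 and 475 against 360 and 742 CPM there. Whether its 3′ reads lie within the floxed segment is not given in the sources used here, so its level does not check the deletion.

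Cells were put into classes by the UMIs of 6 transcription factors, none of them among the 33 genes. Pax6-led cells had more Pax6 than Meis2 UMIs and were divided into those without (2706 cells) and with (4242 cells) a Neurod1 UMI. Meis2-led cells (3870) had more Meis2 than Pax6 UMIs. They numbered 603 and 2322 in the control pools against 573 and 372 in the CKO pools. These were 20.7% and 59.1% of kept cells against 28.6% and 10.1%, and the part of this makeup in the results was not tested. Pax6 is known as a marker of the granule cell lineage, Neurod1 of its differentiating cells, and Meis2 of young cerebellar nuclei neurons. Cells with an Olig2 UMI (759) and cells with a Tbr1 or Lmx1a UMI (1067) overlap with the first 3 classes. Since 1 UMI can decide, class membership depends on depth. Neurod1-positive cells numbered 1113 and 484 in the control pools against 821 and 1824 in the CKO pools. With every cell thinned at random to 1000 UMIs, they numbered 415 and 208 against 159 and 513. In the Meis2-led class, all 9 listed markers of excitatory nuclei neurons were detected in each library, with 2347 to 3154 CPM summed, against 122 to 569 CPM in both Pax6-led classes. Slc17a6 and Meis2 are themselves on that marker list. The 10 markers of the granule lineage, which include Pax6, Neurod1 and Atoh1, were also all detected in the Meis2-led class, with 2304 to 3556 CPM summed against 3176 to 4472 CPM in the Pax6-led classes. In the Meis2-led cells of both CKO libraries the granule list was above the nuclei list, at 3181 against 2666 CPM and at 3556 against 2347 CPM. The class is therefore called by its rule and not as nuclei neurons. In Neurod1-positive cells the 6 cycling markers summed to 2002 and 1356 CPM in the control pools and 2307 and 1950 CPM in the CKO pools. In Neurod1-negative cells they summed to 1439 and 1713 CPM and to 1807 and 1729 CPM. The Neurod1-positive class is therefore also called by its rule and not as the more differentiated one. Of the 7 erythroid markers, whose RNA can spread between droplets, the summed level in Meis2-led cells was 62.6 and 3684 CPM in the control pools against 22.2 and 4.5 CPM in the CKO pools, and their part in the results was not tested.

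RefSeq promoter windows (build GRCm38.p6, 250 bases before to 50 bases after a transcription start) were available for 26 of the 33 genes. Those of 3 genes are shown because they stand for the opposite class patterns described next: Slc17a6 and Sv2a were higher in Meis2-led cells, and Syt1 was lower. Capitals mark E-box hexamers of 2 kinds. One is CAGCTG, which reads the same on both strands. The other is CAGATG, searched on both strands. Such hexamers are a type of site known to be bound by neurogenic bHLH factors such as Atoh1 and Neurod1. The windows lie at chr7:51621580-51621879 (plus strand, Slc17a6), chr3:96180977-96181276 (plus, Sv2a) and chr10:109010926-109011225 (minus, Syt1), each written 5′ to 3′ on the gene's strand. A match is a description of the letters only.
Slc17a6: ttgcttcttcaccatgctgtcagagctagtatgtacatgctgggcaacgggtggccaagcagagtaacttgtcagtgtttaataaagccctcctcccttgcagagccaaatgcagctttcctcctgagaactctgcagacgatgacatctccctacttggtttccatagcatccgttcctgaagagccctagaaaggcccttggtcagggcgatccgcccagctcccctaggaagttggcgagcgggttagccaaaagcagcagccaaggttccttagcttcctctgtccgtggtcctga
Sv2a: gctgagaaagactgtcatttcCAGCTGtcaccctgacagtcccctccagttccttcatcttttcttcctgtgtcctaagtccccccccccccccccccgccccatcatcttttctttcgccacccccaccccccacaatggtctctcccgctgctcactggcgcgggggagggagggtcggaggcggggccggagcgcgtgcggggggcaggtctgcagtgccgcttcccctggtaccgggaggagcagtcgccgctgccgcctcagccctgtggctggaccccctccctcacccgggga
Syt1: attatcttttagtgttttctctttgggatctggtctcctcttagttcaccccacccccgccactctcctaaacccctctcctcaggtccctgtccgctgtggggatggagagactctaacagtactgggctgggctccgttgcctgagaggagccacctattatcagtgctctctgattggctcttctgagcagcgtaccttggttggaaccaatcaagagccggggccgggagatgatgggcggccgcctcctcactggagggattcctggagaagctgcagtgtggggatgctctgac
The Sv2a window holds 1 CAGCTG, while those of Slc17a6 and Syt1 shown here hold neither hexamer. A second RefSeq start of Slc17a6 has 1 CAGATG in its window, and a second start of Syt1 has 1 CAGCTG. The 26 genes have 35 windows. The palindromic hexamer was found in 8 of the 35 (22.9%), 1 each of Bsn, Cplx1, Cplx2, Rab3a, Rab3c, Stx1a, Sv2a and Syt1, and in 16.3% of all 32851 windows. The other hexamer was found in 4 of the 35 (11.4%), of Pclo, Slc17a6, Slc17a8 and Syn2, and in 17.2% of all windows. The Cplx2 window lies 68793 bases before the start of the gene in GENCODE M21 and is not shown.

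The first comparison asked where in the lineage the release machinery is expressed. Most of these genes were already more abundant in Meis2-led cells than in Pax6-led cells, led by Slc17a6, Syt4 and Sv2a. Against Neurod1-negative Pax6-led cells, 21 of 30 tested members were higher and 4 lower, where 24.6% and 25.2% of all 12177 genes tested were higher and lower. Against Neurod1-positive cells, 19 were higher and 5 lower, beside 27.7% and 29.4% of all genes. A gene is called when its adjusted p (edgeR's quasi-likelihood test on UMI sums per library and class, library as block, Benjamini-Hochberg over all genes) is under 0.05. The median log2 fold change of the members was 0.69 and 0.51 in these comparisons, against -0.01 and -0.0049 over all genes tested. Cells thinned to 1000 UMIs each gave 15 and 14 calls among 24 members tested in place of 25 and 24 among 30, where 29.1% and 21.3% of all genes were called in either direction. Cells under 4000 UMIs gave 14 of 28 against the Neurod1-positive class, beside 22.7% of all genes. The classes also differed in depth. Median UMIs were 2617 and 2172 in the control pools against 3110 and 2248 in the CKO pools for Meis2-led cells. They were 4051 and 2816 in the control pools against 16525 and 12141 in the CKO pools for Neurod1-positive cells.

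Levels are given as CPM, the UMIs of a gene for every 1000000 UMIs of the class sum, scaled by TMM (a correction for the makeup of each library), in the order control 1, control 2, CKO 1 and CKO 2. They compare a gene across classes, not genes with each other. Errors over the 4 libraries are SDs that include the difference between genotypes.

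Among the vesicular glutamate transporters, Slc17a6 (VGLUT2, gene at chr7:51622006-51671119) stood at 326, 344, 238 and 221 CPM in Meis2-led cells, with a mean of 282 ± 61.8 CPM (SD, n = 4). In Neurod1-negative Pax6-led cells it stood at 42.5, 90.1, 22.3 and 20.8 CPM. All 4 Meis2-led values were above every Pax6-led value, and the log2 fold change was 2.91 (SE 0.15) against the Neurod1-negative class (edgeR, adjusted p = 1.23e-10). Slc17a7 (VGLUT1) had the opposite order at a low level. It stood at 11.8, 16.2, 8.45 and 7.61 CPM in Neurod1-positive cells and at 3.63, 6.16, 3.55 and 5.0 CPM in Neurod1-negative cells, without overlap, with a log2 fold change of 1.20 (SE 0.26) (edgeR, adjusted p = 0.00427). In Meis2-led cells its UMIs numbered 2, 19, 7 and 0, so its fold there rests on few molecules. Slc17a8 (VGLUT3) had 2 to 9 UMIs per library over all kept cells and was not tested.

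**Figure D1:**
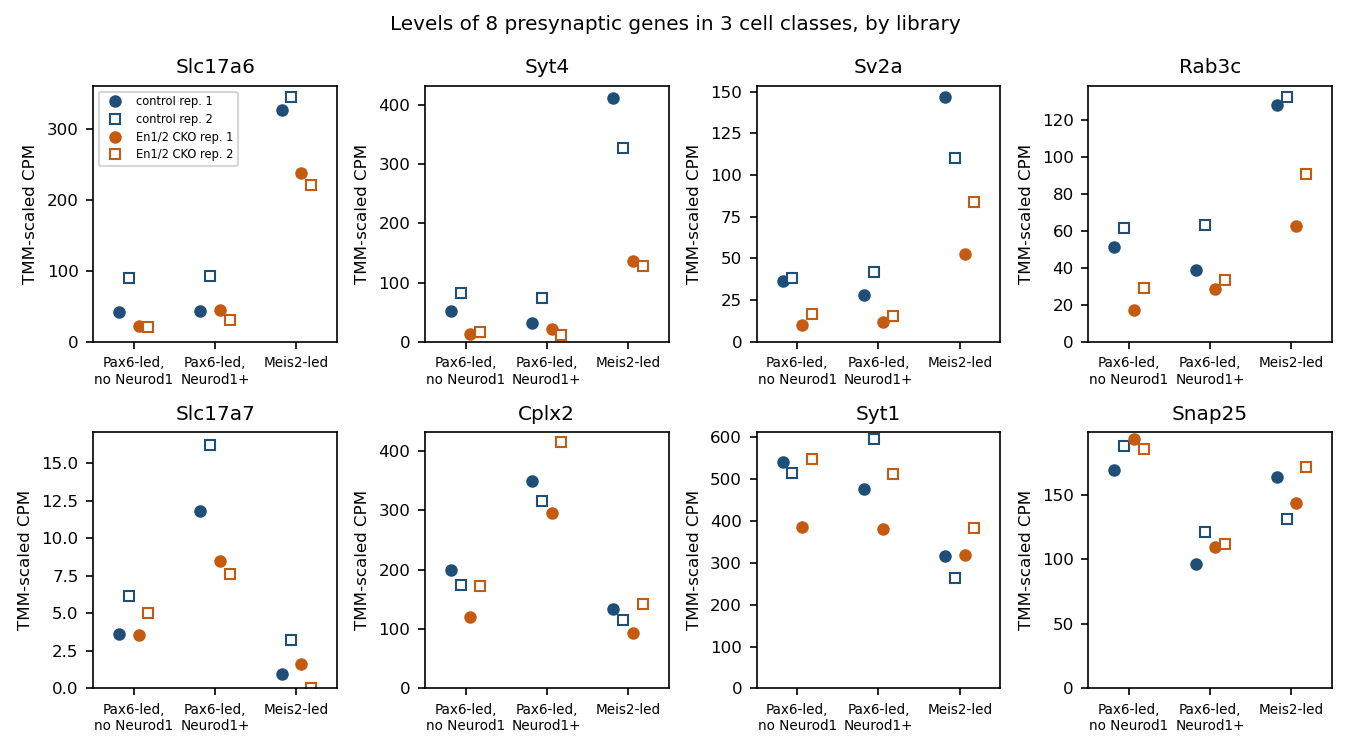
Levels of 8 presynaptic genes (y axis, TMM-scaled CPM, from 0) in the 3 cell classes that share no cells (x axis), with 1 point for each library. Slc17a6, Syt4, Sv2a and Rab3c have their highest values in Meis2-led cells, whereas Slc17a7 and Cplx2 have theirs in Neurod1-positive Pax6-led cells.

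Synaptotagmins, the calcium sensors and related C2-domain proteins of vesicles, divided into both patterns. Syt4, a synaptotagmin known from dense-core and other regulated vesicles, stood at 412, 328, 136 and 128 CPM in Meis2-led cells and at 52.7, 81.6, 13.8 and 16.1 CPM in Neurod1-negative cells (chr18:31437808-31447406). The difference was 2.78 (SE 0.20) on the log2 scale (edgeR, adjusted p = 4.34e-09), with all 4 libraries higher and no overlap of the classes. Syt7, a slow sensor of asynchronous release, and Syt5 were also higher, by 1.73 and 1.70 on the log2 scale against Neurod1-negative cells. Syt1, the fast sensor, went the other way. It stood at 316, 263, 318 and 382 CPM in Meis2-led cells and at 541, 515, 385 and 549 CPM in Neurod1-negative cells, again without overlap, and differed by -0.64 (SE 0.09) on the log2 scale (edgeR, adjusted p = 1.44e-05). Syt11, which does not bind calcium, was higher by 0.47 against the Neurod1-negative class and was not called against the Neurod1-positive class. In cells under 4000 UMIs the former difference of Syt11 turned to -0.06. Syt2, the fast sensor of some mature synapses, had 13 to 31 UMIs per library and was not tested.

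The SNARE and complexin genes had no common direction. Of 5 tested, 2 were higher and 2 (Cplx2 and Snap25) lower in Meis2-led cells against Neurod1-negative cells. Cplx2, a complexin, stood at 350.1, 316, 295 and 415 CPM in Neurod1-positive cells and at 199, 175, 119.9 and 172 CPM in Neurod1-negative cells. Neurod1-positive cells were higher in all 4 libraries without overlap, by 1.06 (SE 0.07) on the log2 scale (edgeR, adjusted p = 6.29e-08). Cplx1 was higher in the same cells by 1.09 (SE 0.18) (edgeR, adjusted p = 0.000585). Meis2-led cells were lower than Neurod1-positive cells in both complexins, by -1.51 for Cplx2 and -1.02 for Cplx1. Snap25, the SNARE of the plasma membrane, was lowest in Neurod1-positive cells, at 96, 121, 109.8 and 112 CPM against 169, 188, 193 and 185 CPM in Neurod1-negative cells. The lower level in Meis2-led than in Neurod1-negative cells (-0.28) turned to 0.17 in intact cells. The difference between the Pax6-led classes was -0.76 (SE 0.09) (edgeR, adjusted p = 4.29e-05), with no overlap. Vamp2 (synaptobrevin 2) was higher in Meis2-led than in Neurod1-negative cells by 0.84, and in Neurod1-positive than in Neurod1-negative cells by 0.46. Stx1a (syntaxin 1A) was higher in Meis2-led cells by 0.83 against the Neurod1-negative class alone. Vamp1 had 26 to 73 UMIs per library and was not tested between classes.

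Of the 10 vesicle surface and membrane proteins, 7 were higher in Meis2-led than in Neurod1-negative cells and none lower. Sv2a, a vesicle glycoprotein (gene at chr3:96181151-96195521), stood at 147, 110.3, 52.5 and 83.6 CPM in Meis2-led cells and at 36.7, 38.5, 9.93 and 16.5 CPM in Neurod1-negative cells. The classes did not overlap, although control and CKO libraries were far apart within each, and the log2 fold change was 2.04 (SE 0.14) (edgeR, adjusted p = 3.66e-09). Rab3c and Rab3a, vesicle GTPases, were higher by 1.44 and 1.47. Rab3a was also higher in Neurod1-positive than in Neurod1-negative cells, at 86, 119.9, 115 and 77.4 CPM against 45, 82.4, 46.8 and 27.1 CPM, while Rab3c differed by 0.08 and was not called. The synapsins, which tether vesicles to actin, differed from each other. Syn1 was higher in Meis2-led cells by 1.09, and Syn2 did not pass the test there (0.12) but was lower in Neurod1-positive than in Neurod1-negative cells by -0.69 (SE 0.11). Syn3 was called higher in Meis2-led cells by 0.95 (edgeR, adjusted p = 0.0479), but its classes overlapped and the difference held in 2 of 4 libraries. Sv2b and Syp (synaptophysin) were higher by 0.47 and 0.43, Sncb (beta-synuclein) was higher in Neurod1-positive than in Neurod1-negative cells by 1.21, and Sv2c was called in no class comparison. In cells thinned to 1000 UMIs the differences of Syp and Sv2b between Meis2-led and Neurod1-negative cells turned to -0.04 and -0.35, and that of Syn1 between the Pax6-led classes to -0.13.

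Active zone genes differed nearly all in one direction, with 7 of 8 higher in Meis2-led cells against either Pax6-led class. Erc2, a scaffold protein of the ERC family, stood at 49.8, 52.6, 35.6 and 51.7 CPM in Meis2-led cells and at 18.2, 19.3, 11 and 18.4 CPM in Neurod1-negative cells. The classes did not overlap, and the difference was 1.47 (SE 0.14) (edgeR, adjusted p = 1.35e-07). Rims1, a RIM scaffold, and Bsn (Bassoon) were higher by 1.18 and 1.15. Pclo (Piccolo), Unc13b and Unc13a (Munc13 priming factors) and Rims2 were higher by 0.58 to 0.72. Ppfia2 (liprin-alpha-2) was the exception, at 0.20 and -0.21 against the Neurod1-negative and Neurod1-positive classes, neither of which passed the test. The difference of Pclo against Neurod1-positive cells turned in intact cells (-0.06) and in thinned cells (-0.05).

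Within the Pax6-led cells, 11 of 30 members were higher in the Neurod1-positive class, where 9.97% of all genes were, and 2 were lower, beside 8.06% of all genes. The higher members were Slc17a7, Syt11, Vamp2, Cplx1, Cplx2, Syn1, Syp, Rab3a, Sncb, Pclo and Ppfia2, and the lower ones Snap25 and Syn2. Of the genes that led the Meis2-led class, Rab3a was among them, by 1.08 on the log2 scale. Slc17a6 differed by 0.38, in the same direction in all 4 libraries, and did not pass the test (edgeR, adjusted p = 0.106). Syt4, Sv2a, Syt7, Syt5 and Erc2 differed by -0.24 to 0.02 and were not called. With cells thinned to 1000 UMIs, 2 of 24 members tested were called in place of 13 of 30, beside 1.81% of all genes. Without CKO replicate 2 members called numbered 7 (4.56% of all genes), and without cycling cells also 7 (10.9%).

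**Figure D2:**
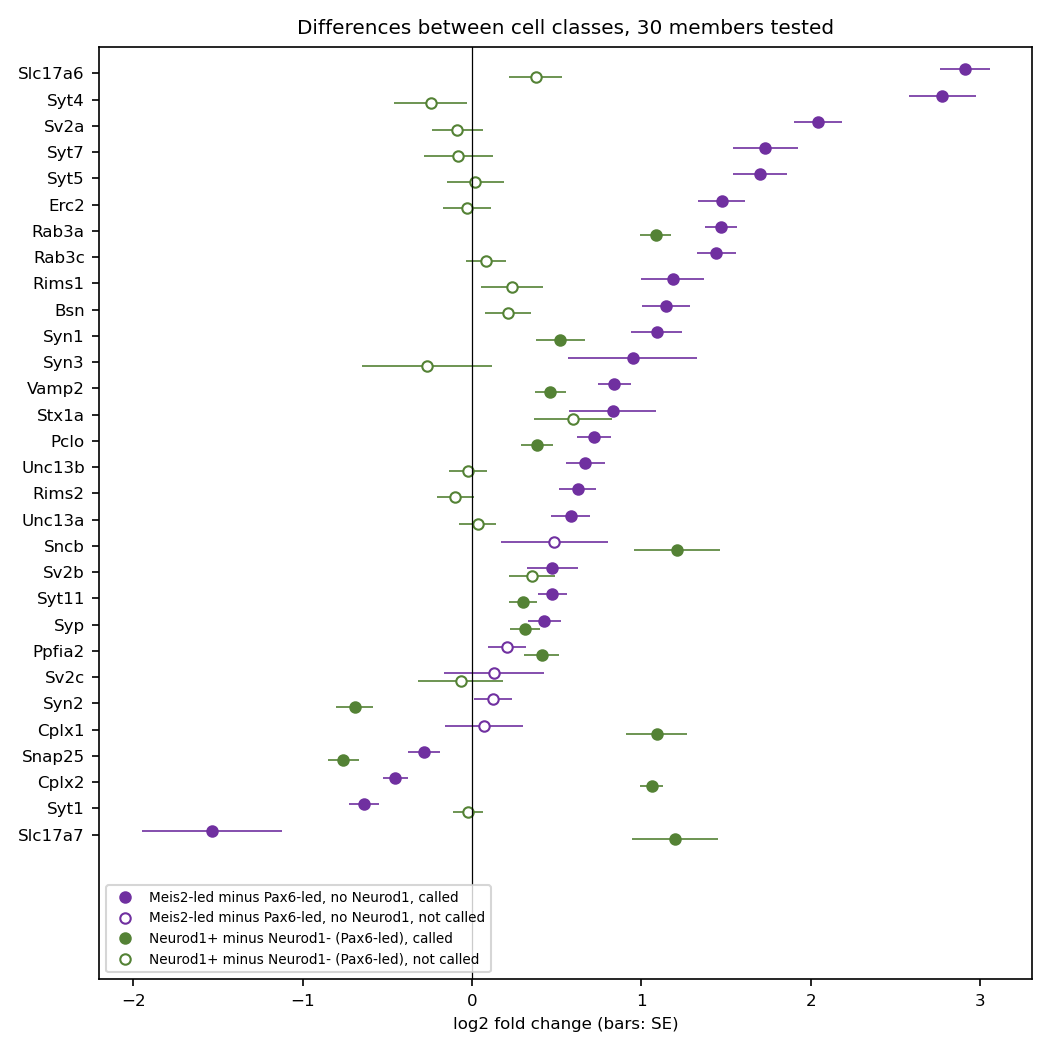
Log2 fold change with its SE (x axis) of the 30 members tested (y axis) for Meis2-led against Neurod1-negative Pax6-led cells (purple) and for Neurod1-positive against Neurod1-negative Pax6-led cells (green), with filled points for adjusted p under 0.05 by edgeR. Slc17a6, Syt4 and Sv2a head the first comparison at 2.91, 2.78 and 2.04, and Slc17a7 and Cplx2 differ in opposite directions in the 2 comparisons.

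The wider release pathway, 87 further genes of 5 fixed lists, was read beside the members. In Meis2-led against Neurod1-negative cells, 46 of 72 tested were higher and 7 lower, beside 24.6% and 25.2% of all genes. Vesicle recycling had 14 of 19 higher and none lower, led by Snap91, Dnm1 (dynamin 1) and Dnm3 at 1.67, 1.61 and 1.60 on the log2 scale. Active zone and priming genes had 11 of 19 higher and 3 lower, with Rab3b at 2.33 and Lin7a at 1.73. Genes of vesicle membrane and filling had 8 of 11 higher and 2 lower, with Svop at 1.73. The list of SNAREs and fusion regulators had 8 of 17 higher, among them Napb at 1.05, and 2 lower, of which Stxbp6 differed by -1.38. The 8 include Prrt1 at 1.52, which is counted by its place on the list and is not itself a SNARE. Other synaptotagmins had 5 of 6 higher, including Syt3 at 1.46. In Neurod1-positive against Neurod1-negative cells 11 of 72 were higher and 1 lower, beside 9.97% and 8.06% of all genes. Cadps2, a priming factor, was higher there by 0.91 (edgeR, adjusted p = 0.000156) and lower in Meis2-led than in Neurod1-positive cells by -2.46. Unc13c, a Munc13 paralogue, was lower in Neurod1-positive than in Neurod1-negative cells by -1.24.

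The second comparison asked whether loss of En1 and En2 changed these genes within a class. Of the 33 genes, Syt4 was the only member called, in 2 of the 5 classes. It was lower in the CKO in Neurod1-negative Pax6-led and in Meis2-led cells. Members called numbered 1 of 31 tested in the Neurod1-negative Pax6-led class, where 0.0174% of all genes were called, and 1 of 29 in the Meis2-led class, where 0.212% were. None was called by edgeR's quasi-likelihood test in the Neurod1-positive, Olig2 and Tbr1 or Lmx1a classes, of 31, 27 and 28 tested, where 0.0223%, 0.019% and 0.00981% of all genes passed. At an unadjusted p under 0.05, 12, 9 and 8 members were lower in these 3 classes and none higher, where 8.25%, 7.63% and 8.94% of all genes passed in either direction. DESeq2 called Syt4 and Sv2a in the Neurod1-positive class (0.505% of all genes), none in the Olig2 class (0.2%), and Syt4 and Sv2a in the Tbr1 or Lmx1a class (0.167%). The libraries are pools of animals, so the test rests on 2 pools of each genotype.

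Syt4 stood at 414 and 333 CPM in the control pools against 139.8 and 130.2 CPM in the CKO pools in Meis2-led cells. Both CKO values were under both controls, with means of 373 ± 57.4 CPM for control pools against 135 ± 6.85 CPM for CKO pools (SD, n = 2 each). The log2 fold change was -1.46 (SE 0.22) (edgeR, adjusted p = 0.0368). In Neurod1-negative Pax6-led cells it stood at 53.6 and 83.5 CPM in the control pools against 14 and 16.6 CPM in the CKO pools. The groups again did not overlap, with means of 68.5 ± 21.1 CPM for control pools against 15.3 ± 1.83 CPM for CKO pools (SD, n = 2 each) and a log2 fold change of -2.11 (SE 0.27) (edgeR, adjusted p = 0.0388). Without control replicate 2 the latter call was lost (log2 fold change -1.79, adjusted p = 0.0571 by edgeR). Without likely doublets the call in Meis2-led cells was lost at an almost equal log2 fold change of -1.46 (adjusted p = 0.0645 by edgeR). Without cycling cells both were lost, at -1.27 in Meis2-led and -1.54 in Neurod1-negative cells (adjusted p = 0.142 and 0.541 by edgeR). Slc17a6 and Sv2a joined Syt4 in Neurod1-negative cells when DESeq2 was used, which called 0.54% of all genes there.

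In the other 3 classes Syt4 was lower in both CKO libraries as well, without passing the test. It stood at 30.8 and 70.7 CPM in the control pools against 20.2 and 11.6 CPM in the CKO pools in the Neurod1-positive class, with a log2 fold change of -1.62 (SE 0.39). In Olig2 cells it stood at 71.1 and 217 CPM in the control pools against 57.7 and 17.9 CPM in the CKO pools and differed by -1.93 (SE 0.61). In Tbr1 or Lmx1a cells it stood at 77.3 and 171 CPM in the control pools against 39.1 and 20.9 CPM in the CKO pools and differed by -2.01 (SE 0.42). Control replicate 2 was the highest library in each of these 3 classes. Without control replicate 1, edgeR called Syt4 in all 3, and the members called numbered 9 of 32, 9 of 30 and 4 of 29 tested. In the same fits 3.54%, 11.4% and 4.25% of all genes were called, so the calls rose over all genes as well. Among the members called were Sv2a and Bsn in each of the 3. Without CKO replicate 1 it called Syt4 in Olig2 cells (0.531% of all genes), and without CKO replicate 2 Syt4 and Sv2a in Tbr1 or Lmx1a cells (0.834%).

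**Figure D3:**
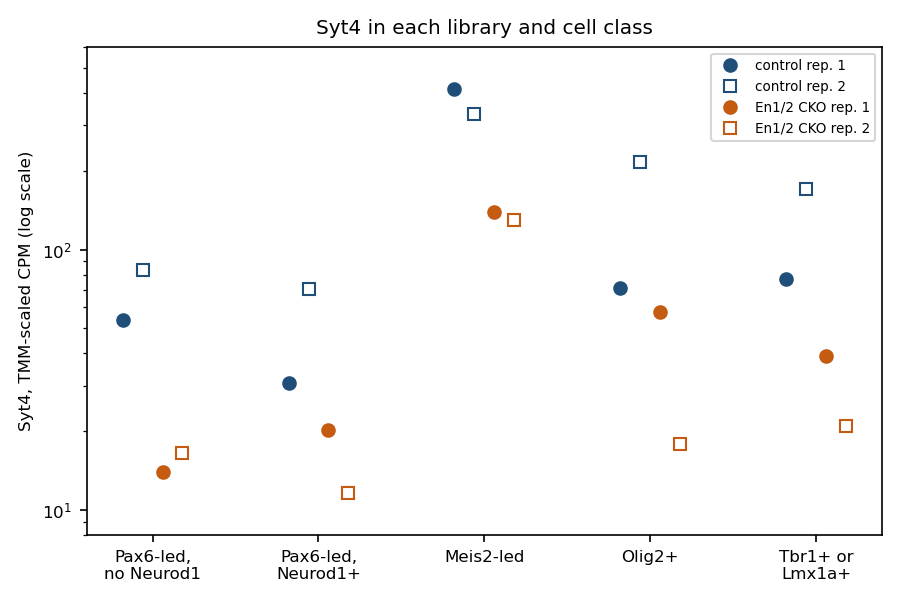
Syt4 level (y axis, TMM-scaled CPM on a log scale) in each of 5 cell classes (x axis), with 1 point for each control (blue) and CKO (orange) library. Both CKO points lie under both control points in every class, and the classes with calls are the Neurod1-negative Pax6-led and the Meis2-led cells.

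The share of Meis2-led cells with a Syt4 UMI, after every cell was thinned to 1000 UMIs with none left out, was 25% and 21.1% in the control pools against 18.2% and 13.4% in the CKO pools. Unthinned, it was 44.1% and 37.5% against 41.4% and 28.0%, and the groups overlapped. Among Neurod1-negative Pax6-led cells the thinned share was 5.81% and 10.1% against 2.58% and 2.86%, and the unthinned share 12.2% and 18.0% against 8.01% and 6.93%. Of 13 haemoglobin-rich cells, which should lack Syt4, none had a Syt4 UMI, which allows a share of up to 23.1%. The same cells did hold 22 UMIs of 14 other members among 88092 UMIs. That is 249.7 CPM for the members together (exact Poisson 95% interval 156.5 to 378 CPM, counting error only), against sums of 1409 to 3253 CPM in the 5 classes. Member UMIs were thus also found in cells that should not express them, and how far this background enters low levels was not tested. Their median depth was 2788 to 16827 UMIs in the 3 libraries that held them.

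Across the members the log2 differences between CKO and control were mostly negative in each class, although apart from Syt4 no gene passed the test. They were negative for 28 of 31, 29 of 31, 23 of 29, 24 of 27 and 23 of 28 members in the order of the next sentence, where 49.3% to 51.4% of all genes were, depending on the class. The median log2 fold change of the members tested was -0.47 in Neurod1-negative Pax6-led, -0.54 in Neurod1-positive, -0.38 in Meis2-led, -0.62 in Olig2 and -0.53 in Tbr1 or Lmx1a cells. Over all genes tested it was -0.01, -0.0083, -0.0082, -0.0003 and 0.0093. Both CKO libraries were below both controls for 17 of 31, 18 of 31, 16 of 29, 16 of 27 and 10 of 28 members, where 23.1%, 22.1%, 22.6%, 20.2% and 20.8% of all genes were. They were above both controls for 1 of 29 members in the Meis2-led class (Syt1) and for 2 of 28 in the Tbr1 or Lmx1a class (Syn2 and Slc17a7), where 22.0% and 21.9% of all genes were. The 5 classes are not independent, since they come from the same 4 libraries and the last 2 share cells with the others.

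**Figure D4:**
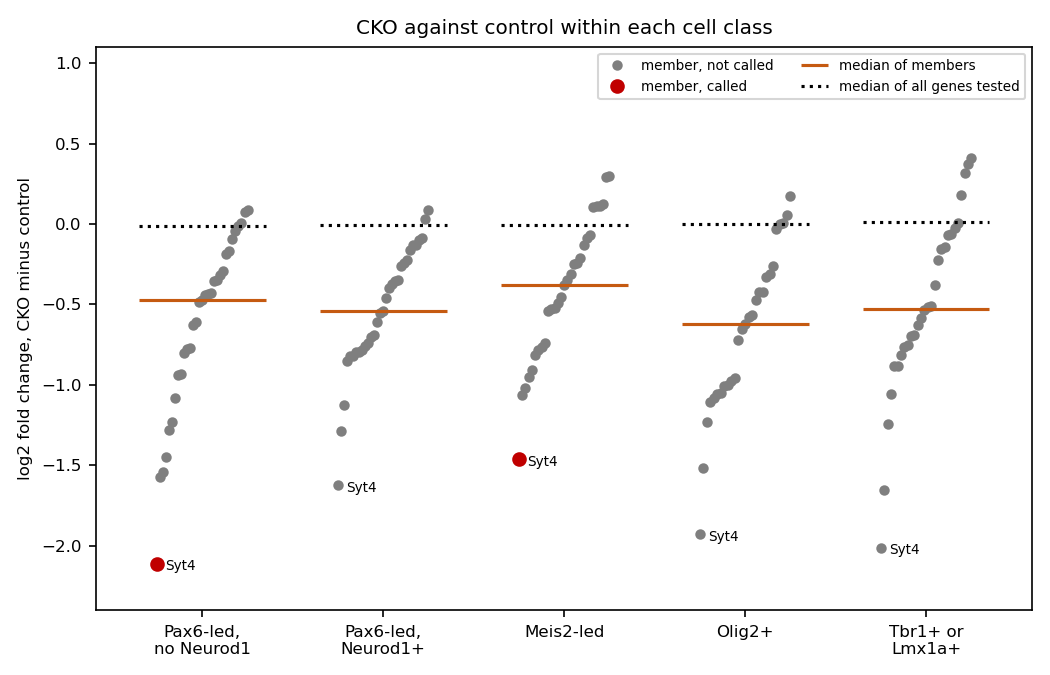
Log2 fold change of each tested member, CKO minus control (y axis), sorted within each of 5 cell classes (x axis), with the median of the members (orange) and of all genes tested (dotted). Syt4 is the lowest member in every class, and the medians of the members lie between -0.38 and -0.62.

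The size of this group shift differed with which cells were kept, by their depth and by an Atoh1 UMI. The genotypes did not overlap in median UMIs, with the CKO deeper, in Neurod1-positive cells (values above). The same held in Olig2 cells, with 4234 and 2606 in the control pools against 13268 and 14646 in the CKO pools, and in Tbr1 or Lmx1a cells, with 3085 and 2547 in the control pools against 5640 and 5264 in the CKO pools. In Neurod1-negative cells the genotypes overlapped, with 2356 and 1934 in the control pools against 3266 and 2243 in the CKO pools, and they overlapped in Meis2-led cells. An Atoh1 UMI was found in 14.4 and 8.4% of control Meis2-led cells against 31.9 and 20.4% of CKO ones, again without equal depth. With cells under 4000 UMIs alone, the members' median was 0.10, -0.02, 0.05, 0.10 and 0.04 in the 5 classes, in the order given above, so the lower level of the group was not seen in them. Without cells that had an Atoh1 UMI it was 0.02, -0.18, -0.11, -0.27 and -0.08. In intact cells, defined by 4000 or more UMIs and mitochondrial UMIs of 5% or less, it was -0.21, -0.21, -0.36, -0.36 and -0.35, and with every cell thinned to 1000 UMIs -0.27, -0.11, -0.14, -0.06 and -0.15. Some of these subsets were small: Olig2 cells under 4000 UMIs numbered 53 and 276 in the control pools against 36 and 22 in the CKO pools. The medians over all genes and the numbers of members tested in these subsets are not given here. Whether depth or the share of Atoh1 cells accounts for the shift was not tested. The Syt4 difference in Meis2-led cells kept its sign under these choices. It was -0.63 in cells under 4000 UMIs, -1.06 without Atoh1 cells, -1.27 in intact cells and -0.87 in thinned cells, and of these the intact cells alone gave an adjusted p under 0.05 (0.0223 by edgeR). In Neurod1-negative cells it was -1.05, -1.5, -1.68 and -1.36, none of them called.

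Summed markers of other cells also differed between genotypes within a class. In Meis2-led cells the 10 granule lineage markers stood at 2404 and 2304 CPM in the control pools against 3181 and 3556 CPM in the CKO pools. The 6 cycling markers stood at 369 and 244 against 773 and 511 CPM, and the 7 markers of glia and ventricular progenitors at 559 and 392 against 877 and 791 CPM. None of these genes was at 0 in any library, and all 3 lists were higher in the CKO without overlap. The 4 markers of the unipolar brush lineage were lower, at 77.8 and 126.6 against 57.5 and 38.2 CPM. The 9 nuclei neuron markers overlapped between genotypes in Meis2-led cells, at 2437 and 3154 against 2666 and 2347 CPM. Among the members highest in Meis2-led relative to Neurod1-negative Pax6-led cells, Slc17a6, Syt4, Sv2a, Syt5 and Rab3c were below both controls in Meis2-led cells. Syt7, Erc2 and Rab3a, also among the highest, overlapped between genotypes there. In Neurod1-negative cells the 9 nuclei neuron markers, Slc17a6 among them, stood at 217 and 569 against 181 and 125 CPM, without overlap. The cycling markers there were higher without overlap, at 1439 and 1713 against 1807 and 1729 CPM. Also lower without overlap were the GABAergic (43.5 and 76.9 against 19.6 and 17.5 CPM), unipolar brush (60.5 and 95.2 against 56.7 and 43.8 CPM) and granule lists (3648 and 3655 against 3176 and 3607 CPM). The endothelial, mesenchymal and immune list was higher (1.93 and 6.34 against 34.4 and 8.40 CPM), and the glia list overlapped. The part of these markers in the CKO differences was not tested.

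**Figure D5:**
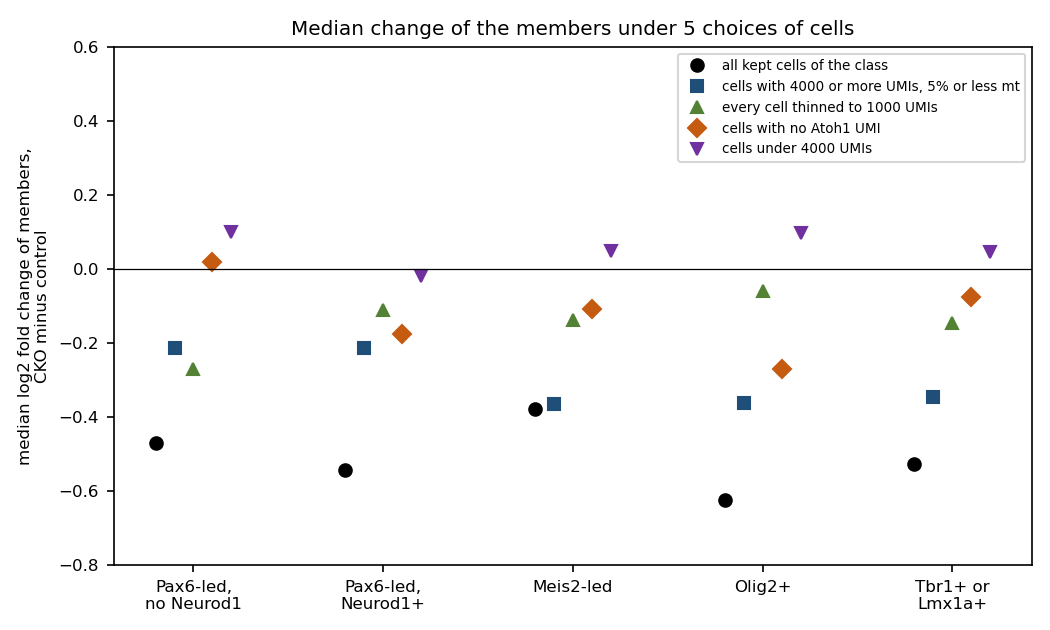
Median log2 fold change of the members, CKO minus control (y axis), in each class (x axis) for all kept cells and for 4 other choices of cells. The medians of all kept cells lie between -0.38 and -0.62, and those of cells under 4000 UMIs between -0.02 and 0.10.

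The makeup of the smaller classes also differed. Of the Olig2 cells, 29 of 112 and 266 of 366 were Meis2-led in the control pools, against 65 of 138 and 25 of 143 in the CKO pools. Of the Tbr1 or Lmx1a cells, 49 of 144 and 306 of 511 were, against 95 of 264 and 28 of 148. Control replicate 2 had the largest and CKO replicate 2 the smallest share in both. Among the Meis2-led cells of the Olig2 class alone, edgeR called Syt4 (-1.34, adjusted p = 0.0072) and Sv2b (-1.16, adjusted p = 0.047), beside 4.56% of all genes. Among those of the Tbr1 or Lmx1a class edgeR called no gene, and 3 of 24 members had an unadjusted p under 0.05, where 7.03% of all genes did.

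Among the glutamate transporters, Slc17a6 stood at 327 and 349 CPM in the control pools against 244 and 225 CPM in the CKO pools in Meis2-led cells, with no overlap and a log2 fold change of -0.53 that did not pass the test. In Neurod1-negative Pax6-led cells it stood at 43.2 and 92.1 CPM in the control pools against 22.6 and 21.4 CPM in the CKO pools. Control replicate 2 was the highest there, the difference was -1.57 (edgeR, adjusted p = 0.118), and DESeq2 called it. In the other 3 classes the groups overlapped. Slc17a7 stood at 11.4 and 15.7 CPM in the control pools against 8.08 and 7.36 CPM in the CKO pools in Neurod1-positive cells, with no overlap and a difference of -0.76 that was not called.

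Besides Syt4, Syt5 was below both controls in 4 classes. It stood at 59.3 and 69.9 CPM in the control pools against 37.8 and 40.4 CPM in the CKO pools in Meis2-led cells, and at 14.8 and 32.3 against 10.1 and 10.8 CPM in Neurod1-negative, 13.5 and 29.3 against 11.5 and 10.5 CPM in Neurod1-positive and 26.4 and 55 against 23.5 and 14.4 CPM in Olig2 cells, controls first. Both CKO libraries were low and close to each other in each of the Pax6-led and Meis2-led classes. Syt7 was below both controls in Neurod1-negative cells, at 13.3 and 20.5 against 4.31 and 11.5 CPM, and in Olig2 cells, at 25.5 and 29.9 against 12 and 16.2 CPM. In Meis2-led cells the CKO libraries stood apart in Syt7, at 43.7 and 37.8 CPM in the control pools against 16.5 and 58.3 CPM in the CKO pools, with the controls between them. Syt11 was below both controls in Neurod1-negative cells (234 and 332 against 202 and 217 CPM) by a small margin in CKO replicate 2. Syt1 overlapped between genotypes in 4 classes and stood at 318 and 267 CPM in the control pools against 328 and 389.9 CPM in the CKO pools in Meis2-led cells, where both CKO libraries were above both controls by 0.30 on the log2 scale, without passing the test.

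The SNARE and complexin genes had the smallest shift of the 5 roles in 4 classes and the active zone genes in the Neurod1-negative class, with SNARE and complexin medians of -0.41, -0.30, -0.07, -0.03 and -0.14 in the 5 classes. Snap25 overlapped between genotypes in all 5, with log2 differences between -0.03 and 0.11. Cplx2 overlapped in 4 classes and was lower in the CKO in Neurod1-negative cells, at 202 and 179 against 121 and 177 CPM, where control replicate 2 and CKO replicate 2 nearly met. Stx1a was below both controls in Neurod1-positive cells (13 and 19.2 against 11.5 and 7.05 CPM) and in Meis2-led cells (18 and 21 against 9.64 and 14 CPM). Cplx1 was below in Neurod1-positive cells (21.1 and 17.7 against 11.5 and 17.1 CPM), and Vamp2 in Neurod1-negative cells (44 and 49.6 against 36.7 and 30.9 CPM). Stx1a was also below in Neurod1-negative cells, and Cplx1 in Neurod1-negative and Meis2-led cells. None of these passed the test.

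Vesicle surface and membrane proteins had medians of -0.63, -0.65, -0.44, -1.03 and -0.66. Sv2a was below both controls in all 5 classes. It stood at 147 and 112 CPM in the control pools against 54.1 and 85.3 CPM in the CKO pools in Meis2-led cells, at 37.3 and 39.4 against 10.1 and 16.9 CPM in Neurod1-negative cells and at 27.1 and 40.4 against 11.6 and 15.2 CPM in Neurod1-positive cells, controls first. In Olig2 cells it stood at 41 and 85.8 against 26.5 and 17.9 CPM, and in Tbr1 or Lmx1a cells at 95.5 and 103 against 26.1 and 38.7 CPM. Its log2 differences were -0.91, -1.45, -1.29, -1.51 and -1.65, with adjusted p from 0.116 to 0.465 by edgeR. The genotypes thus did not overlap in any class, but no class passed the test.

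Rab3c was likewise below both controls in all 5 classes. In Meis2-led cells it stood at 129 and 135 CPM in the control pools against 64.4 and 92.6 CPM in the CKO pools, with close controls. In the Neurod1-negative class it was at 52.1 and 63 against 17.3 and 29.9 CPM, and in the Neurod1-positive class at 37.7 and 61.1 against 27.2 and 32.4 CPM. Olig2 cells had 55.6 and 85.8 against 36.3 and 31.9 CPM and Tbr1 or Lmx1a cells 63.3 and 98.9 against 37.2 and 58.1 CPM. The margin was narrow in Neurod1-positive and in Tbr1 or Lmx1a cells, where control replicate 1 was just above CKO replicate 2. Synaptophysin (Syp), a major vesicle membrane protein, was at 88.9 and 99.9 against 70.0 and 64 CPM in Meis2-led, 71.3 and 81.9 against 43.8 and 45.1 CPM in Neurod1-negative and 76.1 and 112 against 56.8 and 48.4 CPM in Neurod1-positive cells. It was at 57.4 and 95.5 against 47.9 and 28.4 CPM in Olig2 and 122 and 138 against 85.4 and 75.9 CPM in Tbr1 or Lmx1a cells. Neither Rab3c nor Syp was called in any class. Syn1 was below both controls in Meis2-led cells (36 and 36.1 against 27.7 and 29.2 CPM), Sv2b in Olig2 cells (38.3 and 86.6 against 34.6 and 24.5 CPM), and Syn2 above both in Tbr1 or Lmx1a cells (27.9 and 23.9 against 30.3 and 34.1 CPM). Without CKO replicate 2, edgeR called Sv2a and Rab3c in the Neurod1-negative and the Meis2-led class, where it called 1.03% and 5.86% of all genes.

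Active zone scaffold and priming genes had medians of -0.38, -0.47, -0.35, -0.64 and -0.56. Bassoon (Bsn) was below both controls in all 5 classes, at 81.1 and 99.9 against 42.8 and 52.2 CPM in Meis2-led, 45.1 and 34.6 against 18.3 and 23.4 CPM in Neurod1-negative and 36.5 and 65.2 against 18.4 and 26.6 CPM in Neurod1-positive cells. Its values were 34.6 and 86.6 against 25.6 and 26.3 CPM in Olig2 and 45.1 and 91.1 against 37.8 and 37.2 CPM in Tbr1 or Lmx1a cells. The CKO libraries lay closest to each other in Olig2 and in Tbr1 or Lmx1a cells, and control replicate 2 was far above control replicate 1 there and in Neurod1-positive cells. Unc13a, the main Munc13 of many excitatory synapses, was below in all 5 as well, at 80.2 and 80.3 against 52.6 and 59.5 CPM in Meis2-led, 44.7 and 66.9 against 32.7 and 38.5 CPM in Neurod1-negative and 46.3 and 69.2 against 33.8 and 32 CPM in Neurod1-positive cells. Olig2 cells had 39.2 and 62.3 against 34.2 and 30.6 CPM, and Tbr1 or Lmx1a cells had 53.7 and 90.5 against 51.5 and 50.4 CPM. Its paralogue Unc13b overlapped in all classes but Olig2, with log2 differences between -0.42 and 0.10.

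Pclo, the partner of Bassoon, was below both controls in Meis2-led (105 and 93.6 against 56.4 and 81.4 CPM), Olig2 (70.1 and 68.8 against 40.2 and 44.2 CPM) and Tbr1 or Lmx1a cells (104 and 118 against 64.5 and 85.2 CPM), and in Neurod1-positive cells. Ppfia2 was below in Meis2-led (76.8 and 82.6 against 61.1 and 55 CPM), Neurod1-negative (75.4 and 66.1 against 47.8 and 56.9 CPM) and Olig2 cells (62.9 and 77.7 against 41.5 and 52.9 CPM). Rims1 was below in Neurod1-positive (17.7 and 18.2 against 12.4 and 12.1 CPM) and Tbr1 or Lmx1a cells (35.4 and 37.5 against 22.5 and 20.1 CPM), and Rims2 in the latter (79.4 and 99.5 against 53.1 and 58.1 CPM), in Meis2-led and in Neurod1-positive cells. Erc2 was below in Neurod1-positive (15.5 and 25.8 against 11.4 and 15.3 CPM) and Olig2 cells (24.6 and 59.9 against 19.2 and 24.5 CPM). No active zone gene passed the test in any class.

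Members that were not tested in a class were at low counts there: Slc17a8 and Syt2 in all 5 classes, Vamp1 in the Meis2-led, Olig2 and Tbr1 or Lmx1a classes, Slc17a7 in the Meis2-led and Olig2 classes, Syn3 in the Olig2 and Tbr1 or Lmx1a classes, Sncb in the Olig2 class and Sv2c in the Tbr1 or Lmx1a class. Of the 87 further presynaptic genes, edgeR called none of the 65 to 74 tested in a class. At an unadjusted p under 0.05, 13, 14, 13, 11 and 9 of them were lower in the CKO and 1, 1, 2, 2 and 2 higher in the 5 classes. Of all genes, 6.29%, 5.84%, 6.82%, 4.84% and 5.47% were lower and 5.12%, 2.4%, 7.85%, 2.79% and 3.47% higher at that p. DESeq2 called 2 in Neurod1-positive cells and none in the other 4 classes. These were Dnm3 and Prrt1, named after their values were seen, with Prrt1 counted by its place on the list. Over the further genes tested, the median log2 fold change was -0.28, -0.21, -0.23, -0.42 and -0.36 in the 5 classes, on the same side as that of the members.

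The third comparison asked whether the CKO difference depends on the class, by the class-by-genotype term of the fit over the 3 classes that share no cells. Rab3a, a vesicle GTPase (gene at chr8:70754679-70758677), was the only member called. It stood at 102 and 141 CPM in the control pools against 188 and 108 CPM in the CKO pools in Meis2-led cells and at 45.8 and 84.2 CPM in the control pools against 47.4 and 27.9 CPM in the CKO pools in Neurod1-negative Pax6-led cells. CKO replicate 1 was the highest Meis2-led library and CKO replicate 2 the lowest Neurod1-negative one, and the genotypes overlapped in both classes. The CKO difference in Meis2-led cells was larger than that in Neurod1-negative cells by 1.02 (SE 0.19) on the log2 scale (edgeR, adjusted p = 0.0255), while 0.246% of all genes were called. The call was lost when control replicate 2 or either CKO library was left out, with differences of 0.84 to 1.01 and adjusted p of 0.182 to 0.307 by edgeR. In intact cells, in thinned cells and in cells under 4000 UMIs the difference was 0.22, 0.29 and 0.17, with adjusted p of 0.856 to 0.999 by edgeR. It was also not called without Atoh1 cells, without cycling cells or with a margin of 2 UMIs between Pax6 and Meis2.

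For the other pairs of classes, edgeR's quasi-likelihood test called none of 30 members, beside 0.0493% of all genes for Neurod1-positive against Neurod1-negative cells and 0.0821% for Meis2-led against Neurod1-positive cells. At an unadjusted p under 0.05, 4 and 2 members passed, where 3.08% and 6.54% of all genes did. DESeq2 called no member in either, beside 0.0% and 0.156% of all genes. Syt4, called within 2 classes, differed between them by 0.53 (SE 0.41) (edgeR, adjusted p = 0.842), so its CKO difference was not shown to depend on the class.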

How the data were processed

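Single-cell libraries of sorted tdTomato-positive cells were described by the UMI counts that the authors deposited as raw gene-by-cell matrices. The submitters' processing notes name Cell Ranger 5.0.0 and the build mm10, and the annotation is not given in the sources used here. Barcodes with at least 500 genes and 1000 UMIs, and mitochondrial UMIs of 10% or less, were kept. UMI counts were summed for each library and class. Sums were compared with edgeR 4.0.16 in R 4.3.3 (TMM scaling, filterByExpr, quasi-likelihood F test, Benjamini-Hochberg adjustment over all genes tested, threshold 0.05), and with DESeq2 1.42.0 as an alternative. Within a class, control and CKO sums were compared; 12 sums of the 3 classes without shared cells gave the class comparisons, with library as a block, and the class-by-genotype terms. Likely doublets were scored against simulated doublets and stayed in unless stated. Tables and figures were made with Python 3.11.15, numpy 2.4.6, pandas 2.3.3, scipy 1.17.1, scikit-learn 1.9.0 and matplotlib 3.10.9. Gene positions are those of GENCODE M21 on GRCm38.

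The tests were run on simulated data with 200 genes changed by 4-fold. Of these, 85.5%, 89%, 90.5%, 72% and 86% were recovered in the fits of the Neurod1-negative, Neurod1-positive, Meis2-led, Olig2 and Tbr1 or Lmx1a classes. The fits covered 11489, 13472, 11804, 10524 and 10196 genes. For the class-by-genotype term, 82.5% were recovered over 12177 genes. Unchanged genes called numbered 7, 8, 12, 11 and 13 in the classes and 14 for the term. Apart from the set change, each gene was drawn from 1 mean over the libraries. Smaller changes, like most of those of the members, were not simulated, so these rates do not apply to them. With 200 changed genes the Benjamini-Hochberg cut is also easier to pass than in the real class fits, which called 1 to 25 genes. The rates therefore need not hold for a 4-fold change in these data. Syt4, at -1.93 in Olig2 and -2.01 in Tbr1 or Lmx1a cells, was not called.

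Members and lists were chosen with earlier results of these data known. Named members were those called in a fit, or those whose CKO libraries both lay on one side of both controls at 10 CPM or more on average, up to 12 in a class by size of change. For each further presynaptic list, up to 3 called genes were eligible to be named. With 2 pools of animals for each genotype, p-values within a class rest only on the spread between these pools. For each gene, edgeR moderates that spread towards the spread of other genes. For the class comparisons and the class-by-genotype terms, library was a block. Their p-values rest only on how class differences vary from library to library, moderated in the same way. Intervals and limits on shares cover counting error only. Alternatives were DESeq2, other size factors, no low-count filter, other choices of cells, a wider class margin, each library left out and a replicate block.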

Additional observations from a re-analysis of the deposited data

Results flagged for a closer look

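Rab3a was singled out because its CKO difference was not the same in 2 cell classes by a direct test of that difference. The log2 difference between CKO and control was 0.29 in Meis2-led cells and -0.78 in Neurod1-negative Pax6-led cells, and the class-by-genotype term was 1.02 (edgeR's quasi-likelihood test with Benjamini-Hochberg adjustment, adjusted p = 0.0255). In neither class did the control and CKO libraries separate. DESeq2 gave 1.02 with an adjusted p of 0.0137. In cells under 4000 UMIs the term was 0.17 and was not called.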

How the results depend on the processing

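The members' differences within a class rested on 2 pools of each genotype, and most of their CPM values are small. Depth differs between the genotypes, as does the share of cells with an Atoh1 UMI, which was not taken at equal depth. A log2 difference that missed the threshold is therefore not shown to be absent. With other size factors, without GABAergic marker cells, or without cells low in Malat1, no result changed direction, and 3 of the single-gene results lost their call in the last of these. In Meis2-led against Neurod1-negative cells, Slc17a6, Syt4, Syt5, Syt7, Sv2a, Rab3a, Rab3c, Erc2, Bsn, Rims2 and Cplx2 kept their call under all 16 alternatives run.

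Counts of members called depended on the choice. DESeq2 gave 3, 2 and 2 in the Neurod1-negative, Neurod1-positive and Tbr1 or Lmx1a classes, and no low-count filter gave 4, 3, 3 and 3 in the Neurod1-negative, Neurod1-positive, Meis2-led and Tbr1 or Lmx1a classes and 2 for the term of Meis2-led against Neurod1-negative cells. In thinned cells, in cells under 4000 UMIs, without Atoh1 cells and without cycling cells, 0 members were called in the Neurod1-negative and Meis2-led classes and 0 for that term. In intact cells and with a class margin of 2 UMIs, 0 were called in the Neurod1-negative class and 0 for that term, and the wider margin gave 1 in Tbr1 or Lmx1a cells. Without likely doublets 0 were called in Meis2-led cells. Thinned cells gave 2, 15 and 14 members between classes (Neurod1-positive against negative, Meis2-led against Neurod1-negative, Meis2-led against Neurod1-positive), and cells under 4000 UMIs 14 in the last. Without cycling cells 7 members were called between the Pax6-led classes and 1 in Tbr1 or Lmx1a cells. Without Atoh1 cells, 2 members (Vamp2 and Rab3a) were called for the term of Neurod1-positive against negative cells and 1 (Cplx2) for Meis2-led against Neurod1-positive cells. The Meis2-led cells of the Olig2 class gave 2. Leaving out one library in turn gave 0 to 3 members in Neurod1-negative, 0 to 9 in Neurod1-positive, 1 to 5 in Meis2-led, 0 to 9 in Olig2 and 0 to 4 in Tbr1 or Lmx1a cells. The share of all genes called in the same fits was 0.0417 to 1.03%, 0.0292 to 3.54%, 0.384 to 5.86%, 0.267 to 11.4% and 0.056 to 4.25%. Between classes it gave 7 to 14, 22 to 24 and 22 to 26, and for the class-by-genotype terms 0 to 0, 0 to 3 and 0 to 3 (Neurod1-positive against negative, Meis2-led against Neurod1-negative, Meis2-led against Neurod1-positive). The cause of these changes was not tested. Where a count stands here without the share of all genes called in the same fit, it is not read as particular to the members.

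No pairing by the replicate numbers of the labels was seen. Deviations of same-numbered libraries from their group mean correlated at -0.12, -0.14, -0.21, -0.31 and -0.10 in the 5 classes, across genes. With 2 libraries of each genotype, the crossed pairing (numbers swapped in the CKO) gives the same values with the opposite sign. The check therefore cannot show whether the numbers mark a pairing. With the replicate block, members called numbered 4 in the Neurod1-negative class and 0, 1, 0 and 0 in the Neurod1-positive, Meis2-led, Olig2 and Tbr1 or Lmx1a classes. The crossed pairing gave 6, 3, 5, 6 and 2. It was chosen after seeing the data, like the choices of cells under 4000 UMIs, without cycling cells and Meis2-led cells of a class. The shares of all genes called with the block and with the crossed pairing are not given here. These counts are therefore not read as particular to the members.

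Some directions turned under other choices of cells, as log2 differences. Cells without Atoh1 gave the median of the members at 0.018, Unc13a at 0.061, Ppfia2 at 0.23 and Syt11 at 0.037 for CKO against control in Neurod1-negative cells. For CKO against control in Tbr1 or Lmx1a cells, cells without Atoh1 gave Rims1 at 0.12 and Syn2 at -0.30. Cells without Atoh1 gave Syp at -0.034 for Meis2-led against Neurod1-negative cells. For Meis2-led against Neurod1-positive cells, cells without Atoh1 gave Vamp2 at -0.013 and Rab3a at -0.34. Cells under 4000 UMIs gave the median of the members at 0.10, Unc13a at 0.084, Ppfia2 at 0.49 and Syt11 at 0.14 for CKO against control in Neurod1-negative cells. For CKO against control in Neurod1-positive cells, cells under 4000 UMIs gave Sv2a at 0.047, Syp at 0.19, Slc17a7 at 0.61, Erc2 at 0.48 and Rims1 at 0.36. Cells under 4000 UMIs gave the median of the members at 0.048, Syt5 at 0.010, Pclo at 0.29, Unc13a at 0.048, Syp at 0.080, Ppfia2 at 0.053 and Syn1 at 0.026 for CKO against control in Meis2-led cells. For CKO against control in Olig2 cells, cells under 4000 UMIs gave the median of the members at 0.097, Rab3c at 0.18, Pclo at 0.23 and Unc13a at 1.05. Cells under 4000 UMIs gave the median of the members at 0.045, Bsn at 0.35, Rims1 at 0.97, Syp at 0.22, Pclo at 0.30 and Unc13a at 0.15 for CKO against control in Tbr1 or Lmx1a cells. For Meis2-led against Neurod1-negative cells, cells under 4000 UMIs gave Syt11 at -0.061 and Syp at -0.11. Cells under 4000 UMIs gave Snap25 at -0.045 and Pclo at -0.060 for Meis2-led against Neurod1-positive cells. Cells thinned to 1000 UMIs gave Ppfia2 at 0.38 for CKO against control in Neurod1-negative cells. For CKO against control in Neurod1-positive cells, cells thinned to 1000 UMIs gave Erc2 at 0.20. Cells thinned to 1000 UMIs gave Pclo at 0.23 for CKO against control in Meis2-led cells. For CKO against control in Tbr1 or Lmx1a cells, cells thinned to 1000 UMIs gave Unc13a at 0.31. Cells thinned to 1000 UMIs gave Syp at -0.036 and Sv2b at -0.35 for Meis2-led against Neurod1-negative cells. For Meis2-led against Neurod1-positive cells, cells thinned to 1000 UMIs gave Pclo at -0.049. Cells thinned to 1000 UMIs gave Syn1 at -0.13 for Neurod1-positive against Neurod1-negative cells. Intact cells gave Syt5 at 0.005 for CKO against control in Neurod1-negative cells. For Meis2-led against Neurod1-negative cells, intact cells gave Snap25 at 0.17. Intact cells gave Pclo at -0.056 for Meis2-led against Neurod1-positive cells. Cells without cycling markers gave Ppfia2 at 0.039 for CKO against control in Neurod1-negative cells. For CKO against control in Olig2 cells, cells without cycling markers gave Ppfia2 at 0.003. Cells without cycling markers gave Syp at -0.038 for Meis2-led against Neurod1-negative cells. For Meis2-led against Neurod1-positive cells, cells without cycling markers gave Rab3a at -0.12 and Pclo at -0.064. The Meis2-led cells of a class gave Rims1 at 0.17 for CKO against control in Tbr1 or Lmx1a cells. Cells with a class margin of 2 UMIs gave Syn2 at -1.03 for CKO against control in Tbr1 or Lmx1a cells.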
